A study of Mus musculus with 21 samples.

Results

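The genes described here carry long-chain fatty acids into a macrophage, activate them and store them: 4 long-chain acyl-CoA synthetases (Acsl1, Acsl3, Acsl4 and Acsl5), the scavenger receptor Cd36, lipoprotein lipase (Lpl), the binding proteins Fabp4 and Fabp5, the lipid droplet coat protein gene Plin2 and the lipolysis inhibitor Hilpda. They were taken by symbol, through their Ensembl identifiers, from the deposited gene table, and are 10 of its 23250 genes. The genes are named by symbol, but the set was chosen by a measured value in part: the difference in Acsl1 between FcMR and its control, which grew with time. For that reason Acsl1 is given as values with a standard error and no test throughout, and counts of tested members run over the other 9 genes. Members and pathway lists were also chosen with earlier results of these data known. All 10 passed the filter on low counts, with estimated counts between 66 (Acsl3) and 293977 (Lpl) in a single library.

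A free fatty acid is of little use to a cell until an acyl-CoA synthetase joins it to coenzyme A. The activated form can then be burned in mitochondria, built into phospholipid or esterified to triglyceride and kept in lipid droplets. Macrophages take fatty acids up through CD36, release them from lipoproteins with secreted lipoprotein lipase, carry them on FABP4 and FABP5, and cover their droplets with PLIN2. HILPDA blocks the triglyceride lipase ATGL. Acsl1 is known as a gene that inflammatory stimuli raise in macrophages, whereas Cd36, Lpl, Fabp4 and Plin2 are known targets of PPAR nuclear receptors.

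The study asked what a soluble mannose receptor does to macrophages. Bone marrow of C57BL/6J mice was cultured for 7 days with GM-CSF, and the series describes the resulting macrophages as lacking the mannose receptor (gene Mrc1), in the untreated and isotype groups as well as in the FcMR groups. Cells were left untreated (0 h), or received FcMR, the extracellular part of the receptor joined to a human IgG1 Fc region, or an isotype control for 4, 12 or 24 h. Each of the 7 groups has 3 RNA-seq libraries. No label says whether replicates came from separate mice or cultures, so p-values measure the spread between these libraries, which may be technical. No untreated cells were sampled after 0 h, so the isotype protein and time in culture cannot be told apart.

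Library totals ran from 5532225 to 66729533 counts, and Mrc1 had 0 to 11 counts in each. All 10 macrophage markers examined (among them Csf1r, Adgre1 and Cd68) were above 1 CPM (a count scaled to the size of its library) in every library. Since Fabp4, Cd36, Lpl and Plin2 are also adipocyte genes, 10 adipocyte markers were examined. Of these, Adipoq, Lep, Cidec, Cfd and Slc2a4 had no row in the table, and the other 5 summed to 4.87 to 34.7 CPM, mostly Lipe, and Plin1 had 0 counts in the isotype 4 h libraries. In bulk RNA, fewer cells of a type and less RNA per cell cannot be told apart.

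One feature of the libraries touches several results below. The difference in level between genes of high and low GC content, each taken as its deviation from its own mean, was -0.83, -1.59 and 0.64 log2 units in isotype 4 h replicates 1, 2 and 3, and -0.73, 0.70 and 0.80 in FcMR 12 h replicates 1, 2 and 3. Isotype 4 h replicate 3 and FcMR 12 h replicate 1, which thus stood apart from their groups, also stand in each other's place in the library numbering of the titles. At 24 h the FcMR libraries had values of -0.35, -1.26 and 0.41 and the isotype libraries -0.09, -0.03 and -0.05. Untreated libraries had 0.81, 0.05 and 0.46, and FcMR 4 h libraries -0.40, -0.21 and -0.55. Isotype 12 h libraries had 0.58, 0.80 and 0.82, so whole groups differed too. The mean transcript GC of Cd36 (39.6%), Acsl4 (40.1%) and Fabp4 (41.5%) lay under 42.3%, the upper bound of the low GC genes. In Acsl1, isotype 4 h replicate 3 was the lowest library of its group (296 CPM beside 334 and 375) and FcMR 12 h replicate 1 the highest of its group (1480 CPM beside 1327 and 1354). Acsl1 was lower where the GC value was higher within the isotype 4 h and the FcMR 24 h libraries. Without both libraries its log2 difference between FcMR and isotype was 0.865 at 4 h and 1.5 at 12 h, beside 0.95 and 1.55 with them.

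Among the synthetases, Acsl1 had the widest range of levels, Acsl5 followed it on a smaller scale, Acsl3 was lower in treated than in untreated cells, and Acsl4 passed the test in none of the 10 comparisons. Acsl1 (ENSMUSG00000018796.13, GRCm38 chromosome 8, 46471037 to 46536051, plus strand) encodes a synthetase that can channel fatty acids to oxidation or to lipid synthesis, depending on the cell. Its level, in CPM after TMM scaling, was 58.1, 51.3 and 50.8 in the 3 untreated libraries. At 4 h it was 334, 375 and 296 in the isotype libraries and 698, 637 and 603 in the FcMR libraries. The groups did not overlap, and FcMR was 1.93-fold higher (log2 fold change 0.95, SE 0.0891).

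At 12 h Acsl1 stood at 465, 486 and 468 CPM with isotype and at 1480, 1327 and 1354 CPM with FcMR, a log2 fold change of 1.55 (SE 0.0900). At 24 h the isotype libraries had gone back to 116, 115 and 120 CPM while the FcMR libraries stood at 1171, 1213 and 1068 CPM. The log2 fold change at 24 h was 3.30 (SE 0.0966), a 9.85-fold difference. The growth of the difference between 12 and 24 h was thus a matter of levels that went down further in the isotype arm: its mean went from 473 ± 11.4 to 117 ± 2.50 CPM (SD, n = 3), and the FcMR mean from 1387 ± 81.8 to 1151 ± 74.8 CPM. The 7 group means were in the order untreated, isotype 24 h, isotype 4 h, isotype 12 h, FcMR 4 h, FcMR 24 h and FcMR 12 h, and no neighbouring groups in that order overlapped.

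Against untreated cells, Acsl1 was higher with isotype by 2.65 (SE 0.0945), 3.15 (SE 0.0963) and 1.13 (SE 0.0908) on the log2 scale at 4, 12 and 24 h. These values rest on the same isotype libraries as the differences that chose the set, so they are a description. With FcMR the log2 differences from untreated cells were 3.60, 4.70 and 4.43, the last a 21.6-fold higher level. The annotation places a gene of unconfirmed status, Gm45244, on the opposite strand within Acsl1, and the counting is not stated to use strand.

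**Figure D1:**
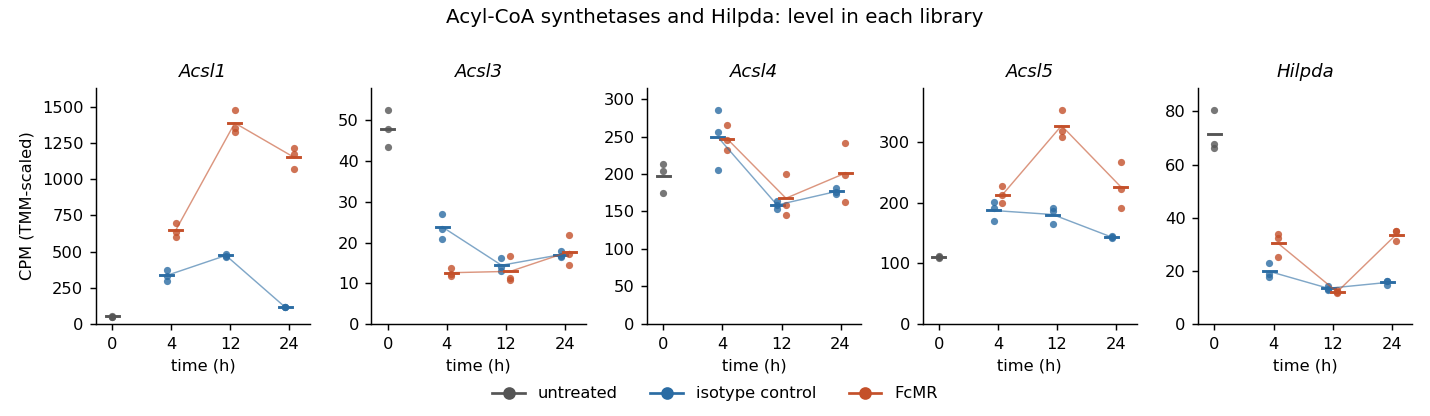
Level of the 4 acyl-CoA synthetase genes and of Hilpda in each library, in CPM after TMM scaling, against time (times are evenly spaced and not to scale; each panel has its own axis from 0). Points are libraries, short bars are means of 3 and thin lines join means of one treatment; Acsl1 reaches a mean of 1387 CPM with FcMR at 12 h and stays at 1151 at 24 h, where the isotype mean is 117.

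Acsl5 (ENSMUSG00000024981.6, chromosome 19, 55251938 to 55297720, plus strand), a synthetase of mitochondria and endoplasmic reticulum, was at 113, 109 and 110 CPM in untreated cells. At 4 h it was at 191, 201 and 170 CPM with isotype and 200, 213 and 227 CPM with FcMR. The groups overlapped, and the difference did not pass edgeR's quasi-likelihood test (log2 fold change 0.19, 95% interval -0.03 to 0.41, adjusted p = 0.239). With GC content corrected, the 4 h difference was 0.26 and passed (adjusted p = 0.00544).

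At 12 h Acsl5 was at 165, 186 and 191 CPM with isotype and at 354, 309 and 319 CPM with FcMR. This was a rise of 0.86 on the log2 scale (SE 0.103, adjusted p = 1.02e-05) with all 3 FcMR libraries above all 3 isotype libraries. At 24 h the values were 142, 145 and 143 CPM with isotype and 222, 267 and 191 CPM with FcMR, a rise of 0.67 (SE 0.103, adjusted p = 0.000114). FcMR 24 h replicates spread far more widely than the isotype replicates, but again did not overlap them. Over untreated cells, Acsl5 rose with isotype by 0.76, 0.71 and 0.38 and with FcMR by 0.95, 1.57 and 1.04 at 4, 12 and 24 h, and passed the test in all 6 comparisons. Zdhhc6 overlaps Acsl5 on the opposite strand in the annotation.

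Promoters of 7 members were in the set of RefSeq promoters (GRCm38.p6) searched, as windows from 250 bases before to 50 after each start, 9 windows in all. They are shown for Acsl1 and Acsl5 because these genes followed each other most closely among the members. Capitals mark matches, on either strand, to NF-kB type letters, GGG and CC with any 5 bases between them; Acsl1 has 4 in the stretch shown and Acsl5 has 1. The Acsl1 stretch is chr8:46470787-46471036 on the plus strand and that of Acsl5 is chr19:55253119-55253368 on the plus strand, both ending 1 base before the RefSeq start used. The Acsl5 stretch lies inside the gene span given above.
Acsl1: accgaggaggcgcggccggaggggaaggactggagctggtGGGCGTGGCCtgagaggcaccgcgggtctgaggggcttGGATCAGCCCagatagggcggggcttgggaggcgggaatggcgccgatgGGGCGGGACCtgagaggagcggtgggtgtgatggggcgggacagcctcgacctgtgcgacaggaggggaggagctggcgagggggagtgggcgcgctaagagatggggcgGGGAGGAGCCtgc
Acsl5: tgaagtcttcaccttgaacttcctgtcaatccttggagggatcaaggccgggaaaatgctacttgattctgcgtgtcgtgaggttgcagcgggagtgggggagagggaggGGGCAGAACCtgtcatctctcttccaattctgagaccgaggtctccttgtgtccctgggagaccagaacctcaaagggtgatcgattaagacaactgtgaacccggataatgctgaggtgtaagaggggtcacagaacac
All 7 members had this match in at least 1 window, 8 of 9 windows in all, beside 50.8% of the 32851 promoters of the table. The match describes the sequence and is not evidence that a factor binds there.

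Acsl3 (ENSMUSG00000032883.15, chromosome 1, 78657825 to 78707743, plus strand), a synthetase found on nascent lipid droplets, was at 47.9, 52.7 and 43.4 CPM in untreated cells. At 4 h it was at 23.4, 27.1 and 21 CPM with isotype and 13.7, 11.8 and 12.3 CPM with FcMR. The FcMR level was 1.89-fold lower (log2 fold change -0.92, SE 0.172, adjusted p = 0.00107), and the groups did not overlap. At 12 h the groups overlapped, with 14, 13.1 and 16.2 CPM against 16.7, 10.8 and 11.3 CPM (log2 fold change -0.17, 95% interval -0.53 to 0.19, adjusted p = 0.613). At 24 h they overlapped too (0.08, 95% interval -0.29 to 0.44, adjusted p = 0.821). With GC content corrected, the 12 h difference was -0.31 and passed (adjusted p = 0.0165), and the 24 h difference was -0.05 (adjusted p = 0.775).

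Relative to untreated cells, Acsl3 fell in all 6 comparisons, with log2 fold changes of -1.02, -1.72 and -1.5 for isotype at 4, 12 and 24 h and of -1.93, -1.89 and -1.42 for FcMR. The lowest mean with FcMR was that of 4 h (12.6 ± 0.979 CPM), and the lowest with isotype that of 12 h (14.4 ± 1.6 CPM). Utp14b lies on the same strand in the annotation and overlaps Acsl3, so reads shared by both genes may have been divided between them. The scaling factors that the authors' normalized table implies also varied more for Acsl3 between libraries than for any other member (from -0.64 to 0.34 in log2).

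Acsl4 (ENSMUSG00000031278.12, chromosome X, 142317993 to 142390535, minus strand), which prefers arachidonic acid, had its lowest group mean at 158 ± 5.81 CPM (isotype 12 h) and its highest with isotype at 4 h, at 256, 286 and 205 CPM. FcMR and isotype overlapped at every time. The log2 differences were -0.01 (95% interval -0.32 to 0.30), 0.08 (-0.22 to 0.39) and 0.19 (-0.12 to 0.50), with adjusted p values of 0.982, 0.805 and 0.419. In order of level, each of the 7 groups overlapped the next. The 4 h value changed sign under RLE scaling (0.05) and with GC content corrected (0.11). Against untreated cells, Acsl4 was called under some alternatives. With isotype at 4 h it was called without isotype 4 h replicate 3 (0.46, adjusted p = 0.0162) and without both libraries that stood apart (adjusted p = 0.00643). With FcMR at 4 h it was called under RLE scaling (adjusted p = 0.047), DESeq2 (0.0367), without both libraries (0.0208), with only the libraries compared (0.00491), and without isotype 4 h replicate 3 (0.0432) or FcMR 24 h replicate 2 (0.0448). At 12 h it was called lower with isotype after GC correction (-0.26, adjusted p = 0.00172), without both libraries (0.0414) and with only the libraries compared (0.014), and with FcMR after GC correction (-0.33, adjusted p = 0.000141) and without both libraries (0.0256). At 24 h it was called lower with isotype after GC correction (-0.18, adjusted p = 0.0211).

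The genes of uptake and lipoprotein hydrolysis rose in isotype cells over the day and did so less or not at all in FcMR cells. Lpl (ENSMUSG00000015568.16, chromosome 8, 68880491 to 68907448, plus strand), whose secreted product frees fatty acids from lipoprotein triglyceride, was at 2436, 2835 and 2951 CPM in untreated cells. With isotype it was at 4007, 4544 and 3316 CPM at 4 h, 4788, 4469 and 4452 CPM at 12 h and 5973, 5917 and 6189 CPM at 24 h. With FcMR it was at 3176, 2785 and 2927 CPM, 3608, 2865 and 2752 CPM, and 3039, 3154 and 2754 CPM at the same times. All FcMR libraries lay below all isotype libraries of the same time.

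Lpl was lower with FcMR than with isotype by log2 fold changes of -0.42 (SE 0.117, adjusted p = 0.0185), -0.57 (SE 0.117, adjusted p = 0.00193) and -1.01 (SE 0.118, adjusted p = 4.63e-06) at 4, 12 and 24 h. The 4 h call was lost under RLE scaling (adjusted p = 0.0686), without the low-count filter (0.193), in the fit of only the 6 libraries compared (0.127), and when FcMR 4 h replicate 2 or 3 or isotype 4 h replicate 1 or 2 was left out (adjusted p = 0.0768 to 0.166). Without both libraries that stood apart, the values at 4 and 12 h were -0.53 (adjusted p = 0.000567) and -0.70 (adjusted p = 5.26e-05). Lpl rose over untreated cells with isotype by 0.53, 0.74 and 1.14 (adjusted p = 0.00167, 6.02e-05 and 4.53e-07). The first of these was not called in the fit of only the 6 libraries compared (adjusted p = 0.0616). With FcMR it differed from untreated cells by 0.11 (95% interval -0.14 to 0.36), 0.17 (-0.08 to 0.42) and 0.12 (-0.13 to 0.37), with adjusted p values of 0.448, 0.261 and 0.399. These comparisons share their untreated libraries. With GC content corrected, the FcMR value at 24 h was -0.03 (adjusted p = 0.728).

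Cd36 (ENSMUSG00000002944.15, chromosome 5, 17781690 to 17888801, minus strand), the receptor for fatty acids and oxidized LDL, was at 854, 1049 and 1061 CPM in untreated cells. At 4 h it was at 1799, 1922 and 1415 CPM with isotype and 1350, 1316 and 1352 CPM with FcMR. The groups did not overlap, but the log2 difference of -0.35 (95% interval -0.67 to -0.04) did not pass (adjusted p = 0.111). It did pass without isotype 4 h replicate 3 (-0.47, adjusted p = 0.0313), the library of 1415 CPM, and with GC content corrected (-0.23, adjusted p = 0.00867).

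At 12 h Cd36 was at 1405, 1451 and 1498 CPM with isotype and at 1234, 982 and 948 CPM with FcMR, a log2 fold change of -0.46 (SE 0.148, adjusted p = 0.0408). This call was close to the threshold: it was lost under RLE scaling (adjusted p = 0.0656), without the low-count filter (0.106) and in 13 of the 21 fits that each left out 1 library (0.0547 to 0.158), and had an adjusted p of 3.18e-07 with GC content corrected. Without both libraries that stood apart, it was -0.59 (adjusted p = 0.00674). At 24 h isotype cells held 2227, 2298 and 2328 CPM and FcMR cells 934, 1171 and 725 CPM. FcMR was 2.42-fold lower (log2 fold change -1.28, SE 0.15, adjusted p = 5.35e-06).

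Isotype cells gained Cd36 over untreated cells by 0.79, 0.55 and 1.21 on the log2 scale at 4, 12 and 24 h (adjusted p = 0.000404, 0.00583 and 3.78e-06). FcMR cells gained 0.44 at 4 h (adjusted p = 0.021), a call lost without untreated replicate 1 (adjusted p = 0.0993) or FcMR 4 h replicate 1 (0.0526). At 12 and 24 h they differed from untreated cells by 0.09 (95% interval -0.22 to 0.41) and -0.07 (-0.38 to 0.25), with adjusted p values of 0.638 and 0.731. With GC content corrected the 24 h value was -0.19 and passed (adjusted p = 0.0125).

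**Figure D2:**
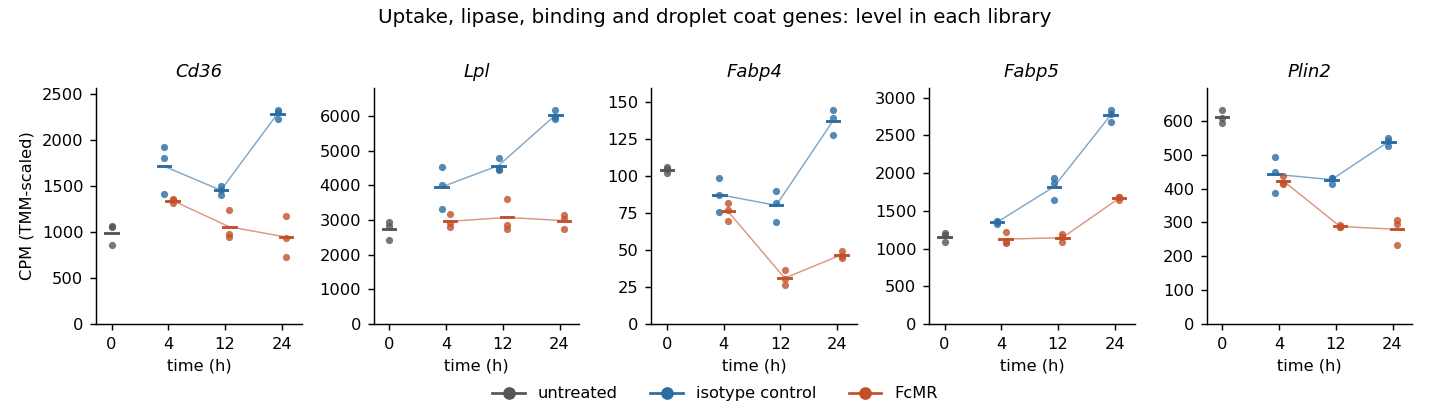
Level of Cd36, Lpl, Fabp4, Fabp5 and Plin2 in each library, in CPM after TMM scaling, against time (times evenly spaced, not to scale; each panel has its own axis from 0). Points are libraries, short bars means of 3 and thin lines join means of one treatment. At 24 h Lpl is at a mean of 2982 CPM with FcMR against 6026 CPM with isotype.

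Both fatty acid binding protein genes were lower with FcMR than with isotype at 12 and 24 h, and at 4 h Fabp5 was called and Fabp4 was not. Fabp4 (ENSMUSG00000062515.3, chromosome 3, 10204088 to 10208576, minus strand) was at 106, 102 and 105 CPM in untreated cells. At 4 h isotype libraries had 87.5, 99 and 76 CPM and FcMR libraries 77.3, 69.5 and 81.8 CPM, which overlapped (log2 fold change -0.20, 95% interval -0.46 to 0.06, adjusted p = 0.291). At 12 h isotype libraries had 89.9, 68.7 and 81.9 CPM and FcMR libraries 36.5, 26.4 and 30.1 CPM. The 12 h fall was 2.59-fold (log2 fold change -1.37, SE 0.123, adjusted p = 3.44e-07) and left no overlap.

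At 24 h Fabp4 was at 145, 128 and 139 CPM with isotype and 49.5, 46 and 44.9 CPM with FcMR, 2.94-fold lower (log2 fold change -1.55, SE 0.123, adjusted p = 4.8e-08). Compared with untreated cells, Fabp4 was lower with FcMR at all times, by log2 fold changes of -0.45, -1.75 and -1.16 (adjusted p = 0.00462, 1.96e-09 and 3.95e-07). With isotype the 4 h difference of -0.25 missed the threshold (adjusted p = 0.112), and Fabp4 fell by 0.38 at 12 h (adjusted p = 0.0175) and rose by 0.40 at 24 h (adjusted p = 0.0122). The 12 h isotype call was lost without isotype 12 h replicate 2 (adjusted p = 0.157) or replicate 3 (0.0623), and the 4 h difference passed without isotype 4 h replicate 2 (-0.38, adjusted p = 0.037) and with GC content corrected (-0.61, adjusted p = 0.00026).

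Fabp5 (ENSMUSG00000027533.10, chromosome 3, 10012548 to 10016607, plus strand) had 1203, 1083 and 1182 CPM in untreated cells. In isotype libraries it had 1356, 1364 and 1327 CPM at 4 h, 1867, 1646 and 1940 CPM at 12 h and 2790, 2672 and 2843 CPM at 24 h, and rose over untreated cells by 0.22, 0.65 and 1.26 on the log2 scale (adjusted p = 0.0263, 1.4e-06 and 4.08e-10). In FcMR libraries it had 1076, 1081 and 1218 CPM, 1194, 1086 and 1151 CPM, and 1677, 1646 and 1680 CPM. Each FcMR group lay wholly below the isotype group of its time.

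The differences in Fabp5 between FcMR and isotype were -0.26 (adjusted p = 0.0198), -0.67 (adjusted p = 4.46e-06) and -0.73 (adjusted p = 1e-06) in log2, with SEs of 0.0741 to 0.0744. The 4 h call was lost under RLE scaling (adjusted p = 0.096), without the low-count filter (0.398), with the authors' factors (0.127), with GC content corrected (0.0854), with only the 6 libraries compared (0.154), and without FcMR 4 h replicate 1 or 2 or isotype 4 h replicate 1 or 2 (0.0845 to 0.104). Against untreated cells, FcMR libraries differed by -0.04 (95% interval -0.20 to 0.12, adjusted p = 0.692) at 4 h and -0.02 (-0.17 to 0.14, adjusted p = 0.886) at 12 h, and rose by 0.53 (adjusted p = 1.19e-05) at 24 h. The isotype rise at 4 h was lost when untreated replicate 2 or isotype 4 h replicate 1 or 2 was left out (0.18 to 0.21, adjusted p = 0.0892 to 0.115), and with GC content corrected (0.05, adjusted p = 0.662). One gene named as a Fabp5 copy, Fabp5l2, is annotated, and estimated counts can divide reads between near-identical copies.

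The droplet genes Plin2 and Hilpda were both highest in untreated cells and differed from each other in their response to FcMR. Plin2 (ENSMUSG00000028494.12, chromosome 4, 86648386 to 86670060, minus strand), whose protein coats lipid droplets and usually tracks their amount, was at 594, 608 and 634 CPM in untreated cells. At 4 h it was at 448, 387 and 493 CPM with isotype and 418, 436 and 415 CPM with FcMR, which overlapped (log2 fold change -0.07, 95% interval -0.27 to 0.13, adjusted p = 0.704). At 12 h isotype cells held 433, 415 and 432 CPM and FcMR cells 286, 287 and 292 CPM. FcMR thus lay lower by a log2 fold change of -0.57 (SE 0.0936, adjusted p = 0.00029).

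By 24 h Plin2 was at 540, 549 and 526 CPM with isotype and 297, 234 and 308 CPM with FcMR, a log2 fold change of -0.95 (SE 0.0942, adjusted p = 7.73e-07). Against untreated cells it fell with isotype at 4 and 12 h (-0.47 and -0.52 in log2, adjusted p = 0.000739 and 0.000213), and at 24 h the difference of -0.19 (95% interval -0.39 to 0.01) missed the threshold (adjusted p = 0.122). With FcMR it fell at all 3 times, by log2 fold changes of -0.53, -1.09 and -1.13 (adjusted p of at most 0.000135). With GC content corrected, the isotype value at 24 h was -0.21 and passed (adjusted p = 0.0287). In mean level, isotype cells went from 427 ± 10.3 CPM at 12 h back to 539 ± 11.8 CPM at 24 h, while FcMR cells stayed at 288 ± 3.33 and 279 ± 40.0 CPM.

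Hilpda (ENSMUSG00000043421.8, chromosome 6, 29272488 to 29275446, plus strand), a gene known to respond to hypoxia, was at 66.3, 67.8 and 80.7 CPM in untreated cells. At 4 h it was at 18.8, 17.7 and 22.9 CPM with isotype and 25.2, 32.2 and 33.7 CPM with FcMR, a rise of 0.61 in log2 (SE 0.122, adjusted p = 0.00181) that did not pass in the fit of only the 6 libraries compared (adjusted p = 0.082). At 12 h it was at 12.8, 13.1 and 14.4 CPM with isotype and 12.7, 12.0 and 11.5 CPM with FcMR (-0.16, 95% interval -0.42 to 0.10, adjusted p = 0.473). All FcMR libraries lay just below all isotype libraries at that time, and the difference did not pass.

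At 24 h Hilpda was at 16.1, 14.7 and 16.1 CPM with isotype and at 34.8, 31.3 and 34.9 CPM with FcMR, 2.15-fold higher (log2 fold change 1.11, SE 0.122, adjusted p = 2.5e-06). The FcMR effect was therefore a rise at 4 and 24 h with a gap at 12 h. Against untreated cells Hilpda was lower everywhere, by log2 fold changes of -1.85, -2.41 and -2.20 with isotype and -1.24, -2.57 and -1.09 with FcMR, each with an adjusted p of at most 4.78e-07.

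Stretches near a RefSeq start are shown for Cd36, Plin2 and Hilpda because these promoter windows hold letters of nuclear receptor or hypoxia elements. The Cd36 and Hilpda stretches lie inside the gene spans given above. The Hilpda stretch and the second Plin2 stretch overlap an annotated exon. The other Hilpda window (29272238 to 29272537) held no hypoxia letters. Capitals mark AGGTCA, the single element of nuclear receptors (in Cd36 and the first Plin2 stretch, on the opposite strand) and the hypoxia element ACGTG (in the second Plin2 stretch, where matches on both strands overlap, and in Hilpda). Positions are chr5:17835897-17836146 for Cd36 and chr4:86670260-86670289 and chr4:86670046-86670075 for Plin2, all on the minus strand, and chr6:29272571-29272600 on the plus strand for Hilpda, in RefSeq's GRCm38.p6.
Cd36: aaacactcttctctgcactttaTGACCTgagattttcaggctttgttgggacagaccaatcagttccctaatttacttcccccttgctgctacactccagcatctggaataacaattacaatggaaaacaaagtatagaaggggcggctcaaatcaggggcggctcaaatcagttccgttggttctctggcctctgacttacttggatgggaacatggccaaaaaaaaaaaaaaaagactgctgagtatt
Plin2, first: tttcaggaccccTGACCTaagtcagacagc
Plin2, second: cagctgggctatCACGTGgctcggaggctt
Hilpda: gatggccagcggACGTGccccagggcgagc
The single element was found in 2 of the 9 windows beside 16.3% of all promoters, and the hypoxia letters in 2 of 9 beside 19.6%. The direct repeat of PPAR dimers (AGGTCA, any 1 base, AGGTCA) was in none of the 9 windows and in 0.0396% of all promoters, on either strand. No match says only that these letters are not in these windows, which do not cover Fabp4, Fabp5 and Lpl.

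Across the 9 tested members, FcMR and isotype differed in 4 at 4 h (Hilpda higher; Acsl3, Fabp5 and Lpl lower), where 17.7% of the 13468 genes tested were called (8.62% higher and 9.13% lower). At 12 h 6 were called (Acsl5 higher; Cd36, Fabp4, Fabp5, Plin2 and Lpl lower), beside 16.1% of all genes (8.61% higher, 7.49% lower). At 24 h 7 were called (Acsl5 and Hilpda higher; the same 5 genes lower as at 12 h), beside 20.9% of all genes (11.4% higher, 9.44% lower). The median log2 difference over the 9 members was -0.20, -0.46 and -0.73 at the 3 times, and over all genes -0.07, -0.02 and 0.01. Since members and lists were chosen with earlier results of these data known, these counts and those below are a description and not independent support. The count at 4 h was the least stable, with 1 to 5 members called under the alternatives tried, and it dropped to 2 without FcMR 4 h replicate 2 or without isotype 4 h replicate 1 or 2.

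**Figure D3:**
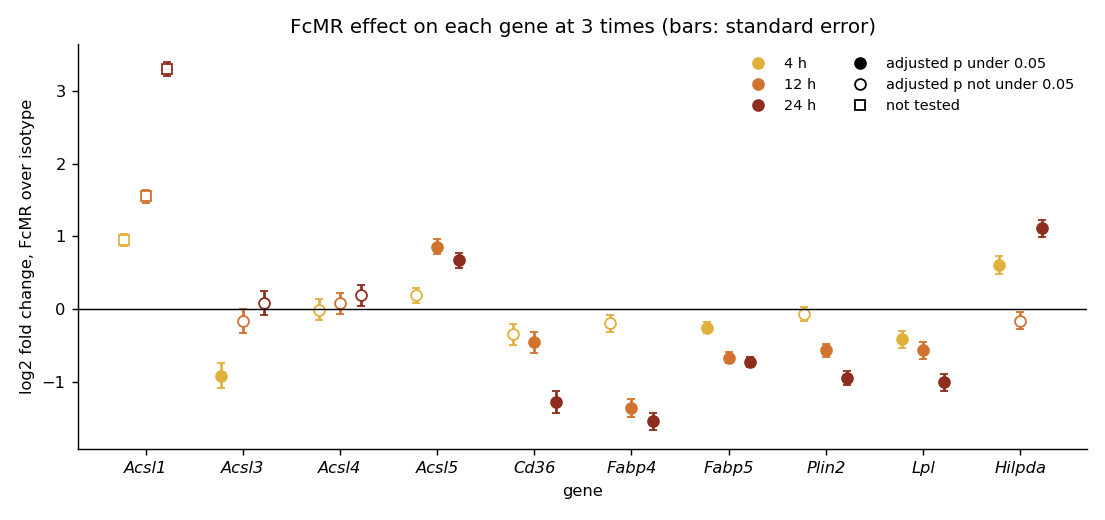
Log2 fold change of FcMR over isotype for each gene at 4, 12 and 24 h, with bars of 1 standard error (3 libraries per group, one fit of 21 libraries). Filled circles passed the test, open circles did not and squares (Acsl1) were not tested; Acsl1 reaches 3.30 at 24 h, while Cd36, Fabp4, Fabp5, Plin2 and Lpl are all below 0 at 12 and 24 h.

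Whether the FcMR effect itself changed with time was tested jointly over the 3 times. Each adjusted p below is of this joint test, and not of the difference between 24 and 4 h printed beside it. Of 9 members, 7 were called, beside 11% of all genes (6.24% with a higher and 4.78% with a lower effect at 24 h than at 4 h): Fabp4 (effect at 24 h minus that at 4 h -1.35 in log2, adjusted p = 7.7e-05), Hilpda (0.50, adjusted p = 0.000319), Plin2 (-0.88, adjusted p = 0.000863), Fabp5 (-0.47, adjusted p = 0.0108), Cd36 (-0.92, adjusted p = 0.0113), Acsl5 (0.48, adjusted p = 0.0122) and Acsl3 (0.99, adjusted p = 0.0241). Lpl (-0.60, adjusted p = 0.0509) and Acsl4 (0.20, adjusted p = 0.833) were not called. For Acsl1 the effect was 2.35 higher at 24 h than at 4 h (SE 0.127). The call of Acsl3 was lost without FcMR 4 h replicate 2 or 3, isotype 4 h replicate 1 or 2 or isotype 24 h replicate 1 or 2 (adjusted p = 0.0606 to 0.105), and also with no low-count filter (0.101), the authors' factors (0.115) and only the libraries compared (0.0581). That of Acsl5 was lost without FcMR 4 h replicate 1 (0.0564) or isotype 4 h replicate 2 (0.0516), with no low-count filter (0.0684) and with the authors' factors (0.0514). Lpl lay at the threshold. It was called with DESeq2 (0.0214), limma voom (0.0439), the authors' factors (0.00104), GC correction (0.000181), without both libraries that stood apart (0.0332), with only the libraries compared (0.0454), and without untreated replicate 1 (0.0456), isotype 4 h replicate 2 (0.0206) or FcMR 12 h replicate 1 (0.0445).

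Isotype cells differed from untreated cells in 7 of 9 members at 4 h (4 higher, 3 lower), beside 35.6% of all genes (20.4% higher, 15.2% lower). At 12 h 8 were called (4 higher, 4 lower), beside 41.6% (22% higher, 19.6% lower), and at 24 h 7 (5 higher, 2 lower), beside 42.2% (21.3% higher, 20.9% lower). Median log2 differences of the 9 members were 0.22, -0.32 and 0.38 at the 3 times, and of all genes 0.00, 0.03 and -0.04. FcMR cells differed from untreated cells in 6 of 9 members at 4 h (2 higher, 4 lower), beside 48.2% of all genes (22.3% higher, 25.9% lower). At 12 h 5 were called (1 higher, 4 lower), beside 48.1% (24.7% higher, 23.4% lower), and at 24 h 6 (2 higher, 4 lower), beside 51.4% (26% higher, 25.4% lower). Neutrophil markers moved with time in both arms: all 10 were in the table, and their sum was 1412 to 1641 CPM in untreated cells, 186 to 221 CPM with isotype and 206 to 230 CPM with FcMR at 24 h, where Elane was at 0 in the FcMR libraries. The part of these cells in the changes from untreated cells was not tested.

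**Figure D4:**
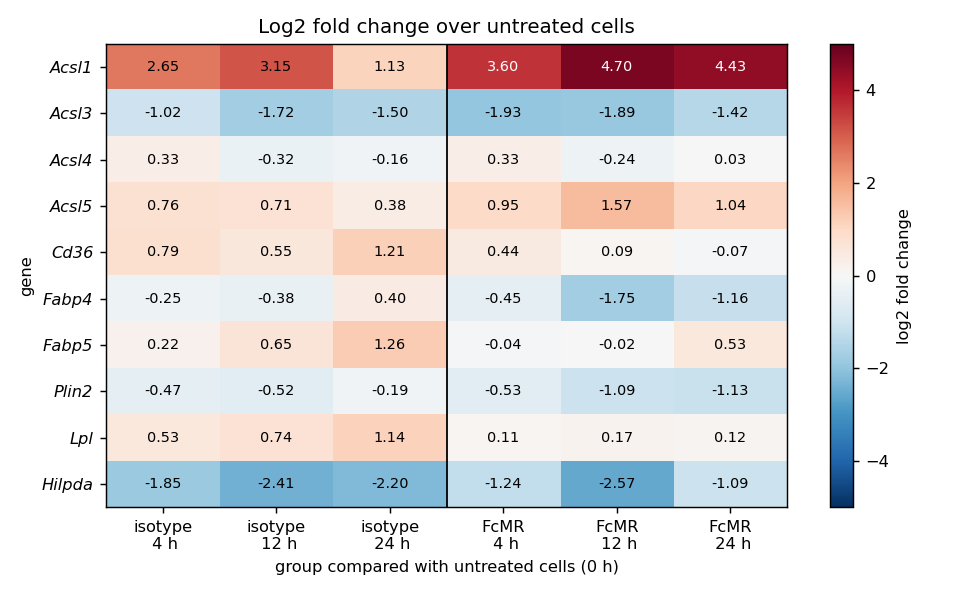
Log2 fold change of each gene over untreated cells, for isotype and FcMR at 4, 12 and 24 h, printed in each cell and coloured from blue (lower) to red (higher). Lpl and Cd36 are above 0 in the isotype columns at every time (1.14 and 1.21 at 24 h) and within 0.17 of 0 in the FcMR columns at 12 and 24 h.

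Summed markers of several other cell types did not overlap between FcMR and isotype. Of 10 endothelial markers 7 were in the table (Tek, Emcn and Gpihbp1 were not), and their sum, mostly Vwf and Kdr, was 222 to 243 CPM with FcMR against 134 to 189 CPM with isotype at 4 h, 109 to 139 against 160 to 174 CPM at 12 h, and 52.9 to 71.6 against 85.1 to 95.4 CPM at 24 h. Vwf was lower with FcMR at 12 h (73.3 against 125 CPM) and 24 h (30.3 against 59.4 CPM). Pecam1, Cdh5 and Esam were higher with FcMR at both times. Kdr was higher at 12 h (44.4 against 34.4 CPM) and level at 24 h (25 against 25.1 CPM). Robo4 was lower at both times and Egfl7 at 12 h only. The 10 stromal markers summed to 15.3 to 17.2 against 11.9 to 13.5 CPM, 14.2 to 19.9 against 4.99 to 6.21 CPM, and 12.1 to 15 against 3.22 to 4.89 CPM. The widest gap in means was that of Pdgfrb at 12 h (11.6 against 1.59 CPM) and 24 h (5.17 against 0.187 CPM), followed at 24 h by Dcn (2.97 against 0.0981 CPM). Pdgfra at both times, Col3a1 at 12 h and Cxcl12 at 24 h were lower with FcMR. Col1a2 and Col3a1 were at 0 in the FcMR 4 h and isotype 24 h libraries. The 10 dendritic cell markers summed to 1764 to 1940 CPM with FcMR against 1547 to 1614 CPM with isotype at 4 h and to 1658 to 1727 against 1457 to 1600 CPM at 24 h, and overlapped at 12 h (1750 to 1964 against 1793 to 1863 CPM). At 24 h Ccr7 averaged 672 against 395 CPM, and Zbtb46, Irf4 and Flt3 were also higher with FcMR. Itgax (867 against 1011 CPM), Cd209a, Xcr1, Clec9a, Dpp4 and Batf3 were lower. The 9 mast cell and basophil markers in the table, of 10, summed to 29.9 to 33 against 20.3 to 22.5 CPM at 24 h and overlapped at 4 and 12 h. Kit had the widest gap at 24 h (17.8 against 8.47 CPM), and Tpsb2 and Gata2 were lower with FcMR. Lymphocyte markers, 9 of 10 in the table, overlapped at all 3 times and summed to at most 9.73 CPM. The macrophage markers, mostly Lyz2, overlapped in sum at 4 and 12 h. At 24 h they summed to 26745 to 28630 CPM with FcMR and 31868 to 36094 CPM with isotype. Lyz2 averaged 21707 against 28184 CPM there. Cd14 (825 against 180 CPM), Adgre1 (1507 against 837 CPM), Csf1r and Ptprc were higher with FcMR at 24 h, and the other macrophage markers lower. The part of these cell types in the FcMR differences of the members was not tested.

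Counts for the other genes of the pathway stand beside 17.7%, 16.1% and 20.9% of all genes called at 4, 12 and 24 h. Pparg and Lipa were lower and Dgat2, Fabp3 and Hsd17b11 higher with FcMR than with isotype at all 3 times. Pparg, the nuclear receptor that drives lipid uptake genes in macrophages and fat cells, was at 27.4, 32.4 and 28.9 CPM in untreated cells, at 16, 20.2 and 13.8 CPM with isotype at 24 h and at 3.70, 3.31 and 3.66 CPM with FcMR at 24 h. It fell with FcMR at 4, 12 and 24 h, with log2 fold changes of -0.70 (adjusted p = 0.00578), -1.54 (adjusted p = 3.15e-06) and -2.24 (adjusted p = 3.49e-08), and the effect differed between times (adjusted p = 0.001). Of 10 tested PPAR receptors and partners, 1, 2 and 2 were called at the 3 times, all lower.

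In triglyceride synthesis, Dgat2, which adds the last acyl group of triglyceride, was at 3.63, 4.29 and 5.15 CPM with isotype at 24 h and at 44.1, 33.8 and 63.5 CPM with FcMR. It rose by 1.33, 1.75 and 3.44 in log2 at 4, 12 and 24 h (SE 0.268, 0.259 and 0.286, adjusted p = 0.00187, 9.78e-05 and 8.74e-08), with an effect that differed between times (adjusted p = 0.00301). Dgat2 was higher where the GC value was higher within the untreated, isotype 4 h, FcMR 12 h and FcMR 24 h libraries. It did not follow that order within the FcMR 4 h, isotype 12 h and isotype 24 h libraries. No value with GC content corrected is given for Dgat2. Lpin1, a phosphatidic acid phosphatase earlier in the same path, fell at all 3 times (-1.15, -1.05 and -0.45, adjusted p = 5.04e-05, 6.72e-05 and 0.0425), to 13.1 ± 1.47 CPM against 17.8 ± 0.537 CPM at 24 h, both far below the 108 ± 7.68 CPM of untreated cells (SD, n = 3). At each time these were the only 2 of the 13 tested genes of the list that were called.

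Fabp3, the binding protein best known from heart muscle, went the opposite way to Fabp4 and Fabp5. It was at 1.17, 0.966 and 0.981 CPM in untreated cells, at 28.1, 39.3 and 45.1 CPM with isotype at 12 h and at 62.9, 102 and 105 CPM with FcMR at 12 h. With FcMR it rose by 1.65, 1.26 and 1.30 over isotype in log2 at 4, 12 and 24 h (SE 0.234, 0.213 and 0.226, adjusted p = 8.31e-05, 0.000347 and 0.000349). It was the 1 gene called higher among 11 tested transport and binding genes at each time, and 0, 2 and 3 were called lower, among them Slc27a6 (-1.46 at 12 h and -2.31 at 24 h, adjusted p = 0.0254 and 0.00015). Levels of Slc27a6 were low, with 0.327 ± 0.289 against 0.926 ± 0.215 CPM at 12 h and 0.823 ± 0.28 against 4.33 ± 0.599 CPM at 24 h. Fabp3 was higher where the GC value was higher within every group but FcMR 4 h and isotype 24 h. No value with GC content corrected is given for Fabp3.

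**Figure D5:**
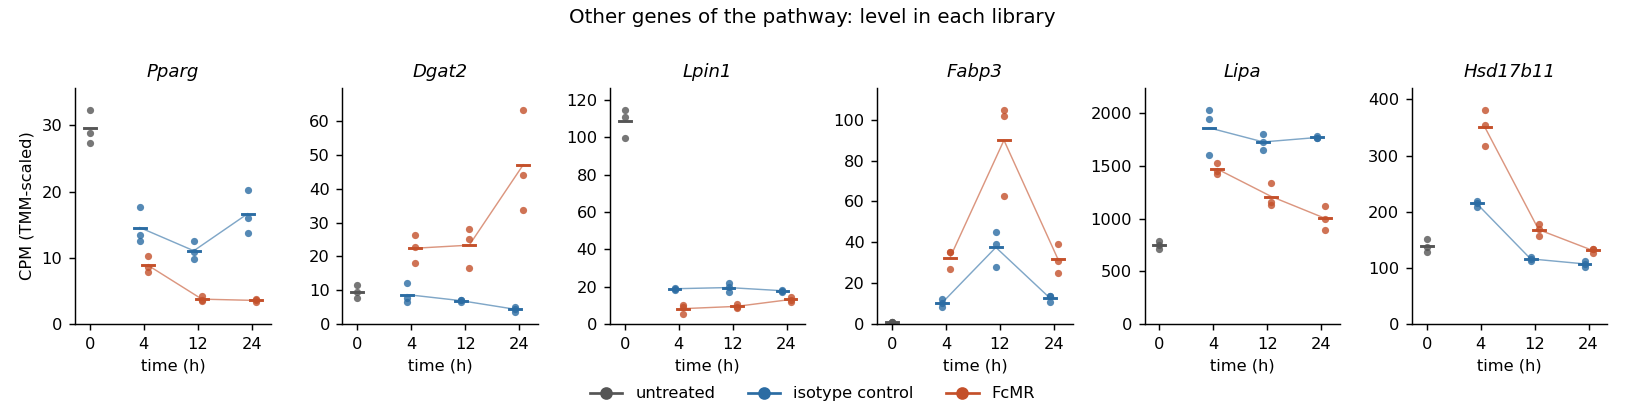
Level of Pparg, Dgat2, Lpin1, Fabp3, Lipa and Hsd17b11 in each library, in CPM after TMM scaling, against time (times evenly spaced, not to scale; each panel has its own axis from 0). Points are libraries, short bars means of 3 and thin lines join means of one treatment; at 24 h Pparg is at a mean of 3.56 with FcMR against 16.6 with isotype, and Dgat2 at 47.1 against 4.36 CPM.

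On the side of droplet breakdown, Lipa, the lysosomal acid lipase, was lower with FcMR than with isotype at 24 h (-0.82 in log2, SE 0.0976, adjusted p = 6.11e-06). Its level there was 1002 ± 114 against 1770 ± 12.3 CPM. Over untreated cells (751 ± 40.3 CPM) Lipa was higher with FcMR at 4, 12 and 24 h (0.97, 0.69 and 0.42, adjusted p = 2.1e-07, 1.24e-05 and 0.00167). Mgll, the monoglyceride lipase, was lower with FcMR than with isotype at 12 h (-0.69, adjusted p = 0.0245). In the FcMR 12 h libraries Mgll was at 194, 264 and 255 CPM, lowest in replicate 1, which stood apart in its GC value. At 4 h the lowest was Ddhd2, a phospholipase (-0.52, adjusted p = 0.00996). Of 8 tested lipolysis genes 3 were called at each time, all lower at 4 and 12 h, and at 24 h 1 was higher, Abhd6 (1.62, adjusted p = 0.0026). Abhd6 was low in level, at 2.39 ± 0.333 CPM with FcMR against 0.769 ± 0.0174 CPM. Hsd17b11, a droplet-associated dehydrogenase, was the 1 gene called of 7 tested droplet coat and assembly genes at each time. It was higher with FcMR than with isotype by 0.71, 0.53 and 0.29 (adjusted p = 7.45e-06, 0.000101 and 0.013). At 24 h its FcMR level did not pass the test against untreated cells (-0.09, adjusted p = 0.344).

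Of 9 tested genes that act on or with lipoprotein lipase, 2, 2 and 3 were called. Angptl4, its inhibitor, was lower at 4 h (0.671 ± 0.159 against 1.82 ± 0.324 CPM, adjusted p = 0.00486) and 12 h (1.05 ± 0.114 against 2.22 ± 0.366 CPM, adjusted p = 0.0175). Apoe was lower at 24 h (11.3 ± 5.17 against 48.3 ± 6.0 CPM, adjusted p = 0.0166), with a spread from 7.4 to 84.7 CPM within the isotype 4 h libraries in the order of their GC values. Lipg, endothelial lipase, was higher at 4 h (14.4 ± 4.27 against 3.65 ± 0.717 CPM, adjusted p = 0.00112).

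Of 23 tested fatty acid oxidation genes, 5 were called at 4 h (2 higher), 5 at 12 h (1 higher) and 2 at 24 h (none higher), beside 17.7%, 16.1% and 20.9% of all genes, with median log2 differences of -0.10, -0.06 and -0.01. The lowest was Acadm, the medium-chain acyl-CoA dehydrogenase, at 4 h (-0.58, adjusted p = 0.00101), and Ucp2, a mitochondrial carrier, at 12 h (-0.87, adjusted p = 0.0147) and 24 h (-1.0, adjusted p = 0.00465). The highest was Acadl, the long-chain dehydrogenase, at 4 h (0.41, adjusted p = 0.0111) and Eci2, an enoyl-CoA isomerase, at 12 h (0.48, adjusted p = 0.0123). Ucp2 was higher where the GC value was higher within the isotype 4 h, FcMR 12 h (228, 356 and 369 CPM) and FcMR 24 h (363, 235 and 464 CPM) libraries. No value with GC content corrected is given for it. Of 14 other acyl-CoA synthetases and thioesterases, 3, 1 and 2 were called. At 4 h the thioesterase genes Acot9 (0.41, adjusted p = 0.0341) and Acot13 (-0.51, adjusted p = 0.00495) were the highest and lowest, at 12 h the acetyl-CoA synthetase gene Acss2 was lower (-0.37, adjusted p = 0.0404), and at 24 h Acsf2 was higher (0.63, adjusted p = 0.0178) and Acot1 lower (-1.91, adjusted p = 0.00899). Acot1 was low in level, at 0.762 ± 0.322 CPM with FcMR against 2.68 ± 0.288 CPM.

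Over the 21 libraries, log2 levels of some members followed each other. Pearson's r was 0.93 between Acsl1 and Acsl5, 0.89 between Cd36 and Lpl, 0.87 between Fabp4 and Plin2, 0.83 between Fabp5 and Lpl, and -0.93 between Acsl1 and Plin2. These describe 7 groups of libraries that share treatment, time and depth, and carry no p. Out of 11109 genes whose log2 CPM averaged 1 or more, the 3 closest to Acsl1 were Fpr2 (r = 0.989), Tma16 (0.986) and Adhfe1 (0.982), and to Lpl Colec12 (0.924), Dlg3 (0.909) and Cdk14 (0.896).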

How the data were processed

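RNA was sequenced as single-end reads of 75 bases on a HiSeq from TruSeq libraries, per the labels' protocols. The submitters' processing notes name CASAVA 1.8.2, kallisto 0.44.0, DESeq2 and the builds mm10 and GRCm38, with no role stated. The deposited raw table was treated as estimated counts per gene, which the authors had deposited as whole numbers, so rounding changed 0 values. The second deposited table, a linear signal that the authors normalized, equals the first divided by factors that differ by gene and library. It entered an alternative only. Identifiers were matched to GENCODE M21 (GRCm38), which gave 23187 of 23250 genes a symbol. The analysis was planned for either kind of count and kept its test.

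Counts were tested with edgeR 4.0.16 (R 4.3.3), by its quasi-likelihood test in one fit of 21 libraries with a coefficient per group, TMM scaling, filterByExpr (minimum 10) and Benjamini-Hochberg adjustment over the 13468 genes left, with a threshold of 0.05. Intervals use 14 residual degrees of freedom. The method was tested on simulated data. No 2 libraries of a group matched within sampling noise (lowest ratio of chi-square to its degrees of freedom 3.09), so each counted as 1. Correlations use log2 CPM with a prior count of 2. High and low GC genes have a mean transcript GC of at least 57.7% and at most 42.3%. Alternatives used DESeq2 1.42.0, limma 3.58.1 and others given with their effect. Beside the members, named genes are those most correlated with Acsl1, Lpl and Fabp4 (the last are not reported here), and the called gene with the highest and the lowest fold change in each of 8 pathway lists at each time. Members and lists were chosen with earlier results of these data known. The set of RefSeq promoters searched held all members but Fabp4, Fabp5 and Lpl. Acsl1 was planned to be tested between isotype and untreated cells, and is given there without a test because those isotype libraries also entered the choice of the set.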

Additional observations from a re-analysis of the deposited data

Results flagged for a closer look

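For 7 of the 9 tested members the difference between FcMR and isotype changed between 4, 12 and 24 h in edgeR's joint test, which is what marked them. Of all genes tested, 11% were called in the same test. The effect on Fabp4 went from -0.20 to -1.37 and -1.55 in log2 (adjusted p = 7.7e-05), on Plin2 from -0.07 to -0.57 and -0.95 (adjusted p = 0.000863), on Fabp5 from -0.26 to -0.67 and -0.73 (adjusted p = 0.0108) and on Cd36 from -0.35 to -0.46 and -1.28 (adjusted p = 0.0113). For Acsl5 it was 0.19, 0.86 and 0.67 (adjusted p = 0.0122), for Acsl3 -0.92, -0.17 and 0.08 (adjusted p = 0.0241), and for Hilpda 0.61, -0.16 and 1.11 (adjusted p = 0.000319). The Hilpda effect thus passed at 4 and 24 h and not at 12 h. The joint calls of Acsl3 and Acsl5 were lost under several alternatives, given above with that test.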

How the results depend on the processing

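The 10 members in 10 comparisons gave 3100 values under 31 alternatives, 21 of which left out 1 library each. Of these, 2943 were kept and 66 changed sign. A tested value was kept if its direction and side of the threshold stayed. Acsl1 has no threshold in the FcMR comparisons, so its change there was set against the spread between its libraries. At 4 h, FcMR against isotype called 2390 genes (48.6% higher) and 4 members. This became 3762 genes with GC content corrected, 3898 without both libraries out of title order and 868 with only the libraries compared. Members called were 2 with RLE factors, 2 with no expression filter and 1 with only the libraries compared. Leaving out 1 library gave 1589 (without FcMR 4 h replicate 2) to 3151 genes (without isotype 4 h replicate 3) and 2 to 5 members. The share called higher was 62.7% with RLE, 75.2% with no filter, 64.4% with DESeq2, 67.2% with the authors' factors, 72.4% with only the libraries compared, 66.2% without FcMR 4 h replicate 3 and 61.4% without isotype 4 h replicate 2. RLE, DESeq2 and the authors' factors moved the median of all genes at 4 h by 0.07, and no filter by 0.12, and by -0.12 for isotype against untreated. At 12 h 2169 genes became 3324 with GC correction. Isotype against untreated at 4 h called 4792 genes (57.2% higher), and 2881 with only the libraries compared (45.5% higher with no filter). The joint test over times called 1484 genes (56.6% higher), and 925 with no filter, 2927 with GC correction and 2616 without both libraries out of title order, or 973 (without FcMR 4 h replicate 2) to 2294 (without isotype 4 h replicate 3). Its share called higher was 42.9% with RLE, 36.1% with no filter, 40.1% with the authors' factors, 44.2% with DESeq2, 42.4% with only the libraries compared and 39.9% without FcMR 4 h replicate 3. Signs changed only in differences that did not pass the test. For FcMR against isotype at 4 h, Acsl4 was 0.052 (RLE), 0.113 (no filter), 0.0524 (DESeq2), 0.00396 (limma voom), 0.0158 (authors' factors), 0.113 (GC) and -0.13 to 0.137 without 1 library, and Plin2 was 0.00107 (RLE), 0.0491 (no filter), 0.000556 (DESeq2), 0.0208 (both libraries out) and -0.116 to 0.0215 without 1 library. At 12 h Acsl4 was -0.0712 (GC), -0.067 (both out) and -0.0672 to 0.177 without 1 library. At 24 h Acsl3 was -0.0529 (GC) and -0.106 to 0.207. Acsl4 was -0.0295 (GC) for isotype against untreated at 4 h. For FcMR against untreated, Fabp5 at 4 h was 0.0193 (RLE), 0.0184 (DESeq2), 0.00164 (authors' factors), 0.0462 (only the libraries compared) and -0.0829 to 0.00858, and at 12 h 0.0166 (no filter) and -0.0575 to 0.0446. Cd36 was -0.0121 (both out) and -0.0117 to 0.187 at 12 h, and -0.211 to 0.13 at 24 h. Acsl4 at 24 h was -0.101 (GC) and -0.0853 to 0.197, and Lpl was -0.0339 (GC). The change of the Acsl4 effect from 4 to 24 h was -0.0376 (GC). The cause was not tested. With the replicate number as a block, 2541, 2290 and 2911 genes were called at 4, 12 and 24 h and 1620 in the joint test, and the joint test of Lpl passed (adjusted p = 0.0484); no other call of a member changed. No pairing of libraries by number was detected. Same-numbered libraries correlated in their deviations from the group means at -0.166 to 0.199 between FcMR and isotype. Against untreated cells the range was -0.367 to 0.338. With 3 libraries per group whose GC values differ, this cannot exclude that the numbers mark a mouse or culture. Depth limits Acsl3 and Hilpda most, with as few as 66 and 89 counts in a library.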
